A study of Mus musculus with 8 samples.

Results

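The transcriptome of the superior cervical ganglion was described in newborn mice that served as controls in a study of the kinesin gene Kif1b. The libraries were chosen by genotype: the 4 control samples, of 8 samples in the series, each from the ganglion pair of 1 mouse of the C57Bl6/n strain on postnatal day 1. The control genotype was KIF1Bb fl/fl : DBHcre -/-, so each animal carried the conditional KIF1Bb allele on both chromosomes and no Cre recombinase. The controls are therefore floxed animals without Cre, and not wild-type mice in the strict sense. The ganglia were snap-frozen, and polyadenylated RNA was sequenced. The other 4 samples, which carried the same floxed allele and DBHcre, were not compared here. Of 23827 rows in the deposited table, 13883 reached a mean of 1 CPM over the 4 control libraries, where CPM (counts scaled to a common library total) allows libraries to be compared.

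Sympathetic neurons of this ganglion innervate the eye, salivary glands, blood vessels and other targets of the head and neck. They make noradrenaline from tyrosine in a chain of enzymes that begins with tyrosine hydroxylase and ends, inside vesicles, with dopamine beta-hydroxylase, and they take the released transmitter back up through a plasma membrane transporter. Preganglionic axons from the spinal cord drive them through nicotinic acetylcholine receptors. Around birth the neurons extend axons, depend on nerve growth factor from their targets, and lie among satellite glia, Schwann cells, capillaries and a connective tissue capsule.

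The 4 libraries had between 16265885 and 17352807 counts. Between any pair of libraries the values of the 11633 genes at a mean of 5 CPM or more had a Spearman correlation, across genes, of 0.962 to 0.992. Chi-square values of 9.56 to 57.2 per gene, where sampling noise alone gives about 1, show that no 2 libraries were copies of each other. Control 1 stood farthest from the others, with a median absolute deviation of 0.18 on the log2 scale from each gene's mean over the libraries, against 0.06 in control 4. Among the genes at 5 CPM or more, 529, or 4.55%, had a highest library at least 2 times the lowest, and this share is the background for every count of genes with such a 2-fold range given below. Without control 1, 82 genes had it, 76 of them among the 529. With 3 libraries fewer genes can reach any range, and leaving out another library left 316, 362 or 506. Of the 36 gene lists used below, 26 had a member with a 2-fold range, and without control 1, 19 of these had none. The 7 with one were red blood cell, adipocyte, skeletal muscle, fibroblast, granin, sensory neuron and ion channel genes. RNA from whole ganglia was measured, so fewer cells of a type and less RNA per cell cannot be told apart. No comparison between groups was made, because the 4 libraries form 1 group.

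The promoters of the transmitter and peptide genes were examined first. The cyclic AMP response element TGACGTCA, a site bound by factors of the CREB family, reads the same on both strands. It lay in 2.43% of 17129 RefSeq promoters (GRCm38.p6) of 300 bases, counted from 250 bases before the start. The share was 1.04% of 6344 promoters of genes below 1 CPM and 5.95% of 269 promoters of genes at 100 CPM per kilobase of exon or more. Of list members at 1 CPM or more with a promoter in the RefSeq table, it lay in 2 of 10 for noradrenaline, 3 of 9 for granins and peptide processing and 1 of 8 for neuropeptides. In other lists it lay in 3 of 20 housekeeping, 2 of 21 immediate early, 1 of 21 axonal cytoskeleton and 0 of 16 transcription factor promoters, so it was not found in transmitter and peptide genes alone. These are the 6 promoters, shown 5′ to 3′ from 130 bases before to 10 bases after the start, with the element in capitals:
Th: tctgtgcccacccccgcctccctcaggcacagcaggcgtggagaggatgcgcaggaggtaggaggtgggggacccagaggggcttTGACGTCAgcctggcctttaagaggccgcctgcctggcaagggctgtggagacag
Slc18a2: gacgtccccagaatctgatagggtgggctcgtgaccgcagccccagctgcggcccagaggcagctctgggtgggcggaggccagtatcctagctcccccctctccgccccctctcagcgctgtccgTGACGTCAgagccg
Chgb: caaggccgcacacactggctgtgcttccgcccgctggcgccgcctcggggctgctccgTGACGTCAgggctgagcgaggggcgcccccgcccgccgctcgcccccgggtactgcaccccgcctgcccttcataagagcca
Scg2: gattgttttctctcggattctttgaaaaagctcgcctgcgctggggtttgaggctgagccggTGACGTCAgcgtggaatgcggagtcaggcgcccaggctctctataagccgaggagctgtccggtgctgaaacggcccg
Pcsk1: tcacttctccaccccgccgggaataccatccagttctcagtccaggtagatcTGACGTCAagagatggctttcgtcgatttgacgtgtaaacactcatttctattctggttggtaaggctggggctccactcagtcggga
Cartpt: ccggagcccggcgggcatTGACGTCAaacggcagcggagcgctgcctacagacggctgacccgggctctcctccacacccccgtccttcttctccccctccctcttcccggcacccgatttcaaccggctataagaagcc
The windows are chr7:142899986-142900125 (minus strand) for Th, chr19:59260748-59260887 (plus) for Slc18a2, chr2:132781512-132781651 (plus) for Chgb, chr1:79440017-79440156 (minus) for Scg2, chr13:75089727-75089866 (plus) for Pcsk1 and chr13:99900674-99900813 (minus) for Cartpt. The first base of the element stood 45 bases before the start in Th, 4 in Slc18a2, 72 in Chgb, 68 in Scg2, 78 in Pcsk1 and 112 in Cartpt. The genes ranged in level from 6.31 CPM per kilobase for Pcsk1, a peptide-cleaving protease, to 559 for Th. A TATA box, TATAAA between 45 and 11 bases before the start, was in 5.71% of promoters below 1 CPM, in 0.818% of those at 3 to under 30 CPM per kilobase and in 3.35% of those at 100 or more. These matches describe the letters and were not tested for binding.

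Cytoskeletal and axonal genes led the list. To compare genes, CPM was divided by the length of the gene's annotated exons (CPM per kilobase), and 13762 genes were ranked, with a median of 6.40 CPM per kilobase; 5112 reached 10 and 354 reached 100. Tuba1a, an alpha tubulin of growing neurons, ranked first at 2123 ± 303 CPM per kilobase (SD, n = 4). It was followed by Tmsb4x, which encodes an actin-sequestering peptide (1997 ± 400), Gap43, a protein of axonal growth cones (1910 ± 240), and the beta tubulins Tubb5 (1868 ± 186) and Tubb3 (1837 ± 192). Next came Uchl1, a neuronal ubiquitin hydrolase, at 1531 CPM per kilobase, Prph, the intermediate filament of peripheral neurons, at 1380, the chaperone Hsp90ab1 at 1187, the synuclein Sncg at 1063, and the microtubule regulators Stmn3 and Stmn2 at 981 and 978. Dbh ranked 12 at 885 ± 85.5, ahead of the elongation factors Eef1a1 (753) and Eef2 (725). The imprinted gene Nnat ranked 14 at 740, Tubb2b 16 at 713, Actb 17 at 699, the selenoprotein gene Sepw1 18 at 695, the calmodulin gene Calm2 19 at 657 and Gnas 20 at 643.

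By counts not corrected for length, Gnas, which encodes the stimulatory G protein alpha subunit, took the most, with 7492, 6475, 7448 and 7344 CPM in controls 1 to 4. It held 0.719% ± 0.044 of all counts (SD, n = 4). The 10 most abundant rows held 4.45% ± 0.16 and the 100 most abundant 16.4% ± 0.27. No small set of genes dominated a library: 1000 rows were needed to reach 46.4% ± 0.30. Behind Gnas stood Tubb5 at 6216 CPM, Stmn2 at 5479, the noncoding RNA Meg3 at 4117, the microtubule-associated protein gene Map1b at 4011, Tuba1a at 3827 and the noradrenaline transporter gene Slc6a2 at 3759. Long transcripts gain rank on this scale, and per kilobase Map1b ranked 81 and Meg3 96. The exon length used joins all annotated isoforms, which can lower genes with many alternative exons. Gnas, whose longest transcript has 3947 bases, ranked 20 per kilobase. Protein-coding genes held 98.4% of counts and long intergenic noncoding RNAs 0.779%. Of all rows, 16566 had a mean of at least 0.1 CPM, 2495 of at least 100 and 78 of at least 1000, and 4950 had no count in any control library.

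**Figure D1:**
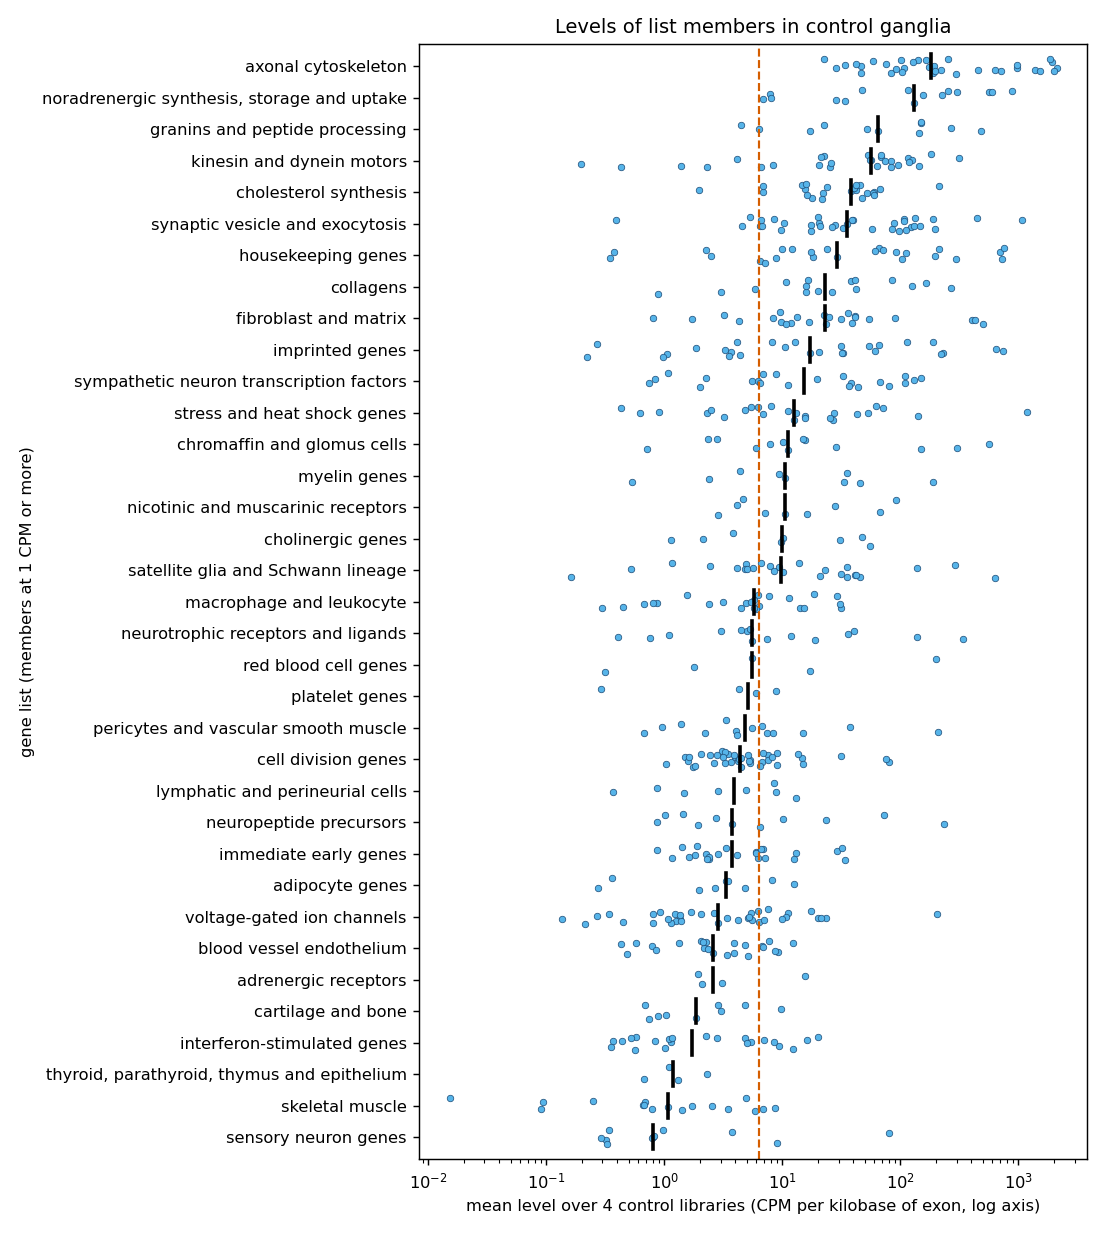
Mean level over the 4 control libraries in CPM per kilobase of exon (log axis) of each member at 1 CPM or more (points) of 35 gene lists, with the median of each list (black bars) and of all ranked genes (dashed line, 6.40). Axonal cytoskeleton and noradrenergic genes have medians of 182 and 131, and sensory neuron genes a median of 0.804.

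The plot of levels by list orders the gene groups from highest to lowest. Medians, taken over the members at 1 CPM or more, were above 50 CPM per kilobase for 4 of the 35 lists plotted: axonal cytoskeleton at 182, noradrenergic genes at 131, granins and peptide processing at 64.6, and kinesin and dynein motors at 55.9. The list left out of the plot, of X inactivation and Y-linked genes, had 1 gene at 1 CPM or more, at 72.9. Cholesterol synthesis (38.3), synaptic vesicle and exocytosis (35.6), housekeeping (28.97), collagens (23.2) and fibroblast and matrix genes (23.2) followed. Satellite glia and Schwann lineage genes had a median of 9.74, macrophage and leukocyte genes 5.77 and endothelial genes 2.61. Medians below 2 were found for cartilage and bone, interferon-stimulated, thyroid and epithelial, skeletal muscle and sensory neuron genes.

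Genes for making, storing and recovering noradrenaline were abundant and differed little between animals. Of 16 genes, 15 reached 1 CPM, and 10 ranked among the top 10% of ranked genes per kilobase. Dbh (chr2:27165233-27183200, plus strand), the enzyme that converts dopamine to noradrenaline, had 2244, 2199, 2708 and 2373 CPM. Th (chr7:142892752-142931128, minus strand), the rate-limiting enzyme, had 1234, 1233, 1502 and 1319 CPM. Both were highest in control 3, and the 4 libraries of each lay within 1.23-fold. Slc6a2 had 598 ± 52.7 CPM per kilobase, close to the 559 ± 53.4 of Th.

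The steps between and after these were lower. Ddc, the decarboxylase that makes dopamine, had 922, 1072, 1025 and 1035 CPM, or 227 ± 14.4 CPM per kilobase, and the vesicular monoamine transporter gene Slc18a2 had 117 ± 16.8 CPM per kilobase. Its paralog Slc18a1, typical of endocrine cells, had 7.81 ± 1.99. Maoa, the monoamine oxidase that degrades noradrenaline, stood at 254 ± 21.6 and Maob at 34.0 ± 1.49 CPM per kilobase. Cyb561, the vesicle membrane cytochrome that supplies electrons to dopamine beta-hydroxylase, had 299 ± 13.6. In the branch that makes the tetrahydrobiopterin cofactor of tyrosine hydroxylase, Gch1, its first enzyme, had 47.6 ± 3.67 CPM per kilobase and the recycling enzyme genes Qdpr and Pcbd1 had 131 and 154. The summed level of the list was 11844, 12332, 12435 and 12083 CPM in controls 1 to 4, and 0 of 15 members at 5 CPM or more had a 2-fold range, against 4.55% of all genes.

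**Figure D2:**
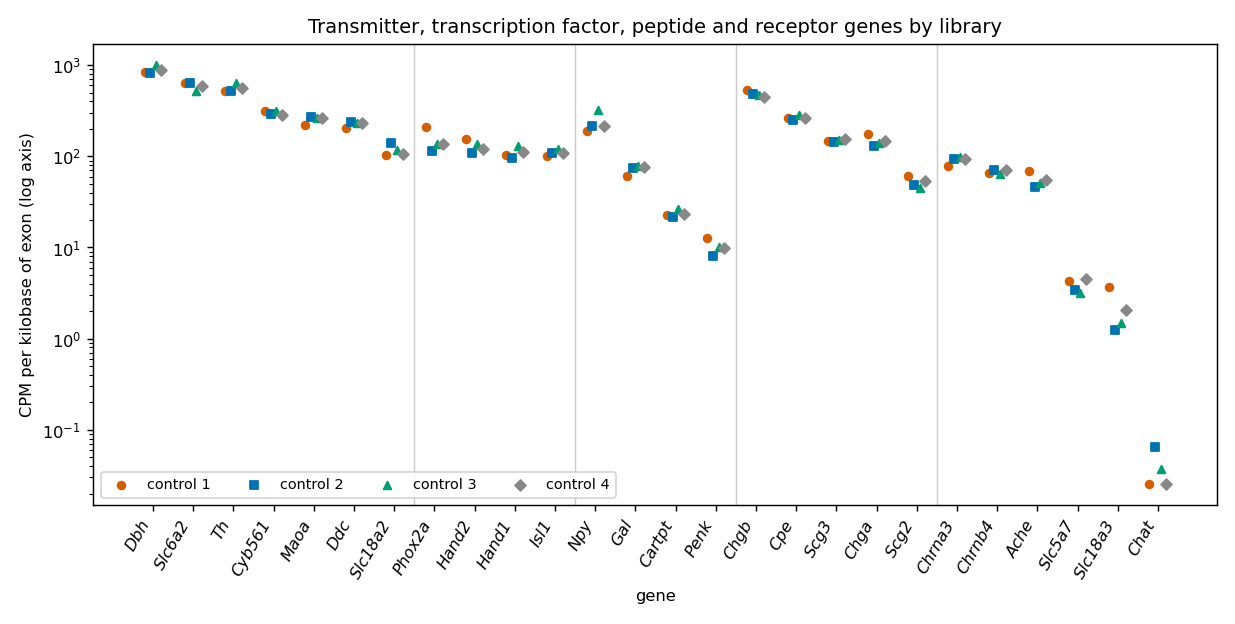
Level in CPM per kilobase of exon (log axis) of 26 genes in each control library (symbols), grouped by vertical lines into noradrenergic genes, transcription factors, neuropeptides, granins and processing, and acetylcholine receptors and cholinergic genes. The libraries of Dbh and Th overlie closely, control 1 is highest for Phox2a, and Chat lies lowest.

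Transcription factors of the sympathetic lineage had a median of 15.4 CPM per kilobase, against 6.40 for all ranked genes. Of 23 genes, 22 reached 1 CPM, and 9 ranked in the top 10% per kilobase. Phox2a, a homeobox factor of noradrenergic neurons, had 429, 233, 276 and 277 CPM, so that control 1 lay above the other libraries. Hand2 and Hand1, bHLH factors of the lineage, had 130 ± 20.6 and 110 ± 13.7 CPM per kilobase, and the LIM homeobox gene Isl1 had 110 ± 7.66. Insm1, a zinc finger factor of neuroendocrine progenitors, was lower, with 10.3, 5.00, 6.62 and 6.32 CPM. The high-mobility-group factor Sox4 had 274, 162, 116 and 183 CPM. Sox4 and Insm1, both highest in control 1, were among the 3 of 22 members at 5 CPM or more with a 2-fold range, or 13.6% against 4.55% of all genes. Without control 1 none of the 22 had it, and with length and GC content centred 2 had it. The centred range of Insm1 was 1.57-fold. The summed level was 3624 CPM in control 1 and 2904 to 3024 in the other libraries.

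Among neuropeptide precursors Npy led. Npy, the main peptide cotransmitter of sympathetic neurons, had 106, 123, 181 and 122 CPM, or 235 ± 58.1 CPM per kilobase, rank 90 of the ranked genes. Gal, the precursor of galanin, had 48.0, 58.4, 61.8 and 59.6 CPM, or 72.3 ± 7.81 CPM per kilobase. Cartpt (23.5 ± 2.28) and the enkephalin precursor Penk (10.2 ± 1.84) came next on the scale per kilobase, and the rest of the list was lower. Vip, a peptide of cholinergic sympathetic neurons, had 10.5, 6.34, 4.03 and 5.54 CPM and was the 1 member of 7 at 5 CPM or more with a 2-fold range. Tac1, the precursor of substance P, and Calca, the precursor of the calcitonin gene-related peptide, were at 0.431 and 0.725 CPM, and Calcb, Ucn and Cck were under 0.1 CPM.

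Granins and enzymes that process peptides in dense-core vesicles had a median of 64.6 CPM per kilobase, against 3.78 for the peptide precursors. Chgb, secretogranin I, had 1475, 1308, 1302 and 1227 CPM, or 485 ± 38.3 CPM per kilobase. Carboxypeptidase E, Cpe, followed at 266 ± 14.03, with Scg3 at 150 ± 4.87, Chga at 148 ± 18.9 and Scg5 at 143 ± 25.2. The convertases were lower, with Pcsk1 at 6.31 and Pcsk2 at 4.45 CPM per kilobase. Pcsk1n, an inhibitor of convertase 1, had 219, 64.0, 143 and 141 CPM. It was lowest in control 2 and was the 1 of 11 members with a 2-fold range. The remaining members stayed within 2-fold in all 4 libraries, Scg3 within 1.07-fold.

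Genes for acetylcholine synthesis were near the detection limit while its receptors and breakdown were well represented. Chat, which makes acetylcholine, had 0.119, 0.305, 0.173 and 0.119 CPM, that is 2, 5, 3 and 2 counts in controls 1 to 4. The vesicular acetylcholine transporter gene Slc18a3 had 9.01, 2.99, 3.57 and 5.01 CPM, and the choline transporter gene Slc5a7 had 24.1, 19.4, 17.7 and 25.6 CPM. Ache, the esterase that cleaves acetylcholine, had 55.4 ± 9.78 CPM per kilobase. The gp130-type receptor genes through which cytokines act on these neurons had 47.4 (Cntfr), 30.8 (Lifr) and 10.2 (Il6st) CPM per kilobase. Slc18a3 had a 2-fold range, 1 of the 7 members at 5 CPM or more.

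Of the receptors, the ganglionic nicotinic subunits stood highest. Chrna3, the alpha 3 subunit, had 417, 496, 519 and 492 CPM, and its partner Chrnb4 had 243, 261, 236 and 264 CPM. Per kilobase they stood at 91.3 ± 8.37 and 67.5 ± 3.60, above Chrna5 (28.2), Chrnb2 (16.1), Chrna7 (10.4) and Chrna4 (4.14). The muscarinic gene Chrm2 had 4.68, and Chrna2, Chrna9, Chrnb3 and Chrm3 were under 0.1 CPM. None of the 8 members at 5 CPM or more had a 2-fold range, 1 did with length and GC content centred, and the summed level stayed within 1.06-fold. Among adrenergic receptors Adra2a, the autoreceptor that limits release, led at 15.5 ± 2.24 CPM per kilobase. Lower levels were found for Adra2c (3.10) and Adra2b (1.92), while Adra1a and Adrb1 were under 0.1 CPM. Adra2b had 4.53, 7.68, 11.6 and 7.04 CPM and Adra2c 15.99, 7.01, 9.73 and 10.0 CPM. These were 2 of 3 members at 5 CPM or more, too few to set beside the background, and control 1 was lowest for the first and highest for the second.

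Neurotrophic receptors and their ligands differed in level. Of 22 genes, 15 reached 1 CPM, and 0 of 14 at 5 CPM or more had a 2-fold range. Ngfr, the low-affinity neurotrophin receptor, had 522, 408, 475 and 519 CPM, or 140 ± 15.5 CPM per kilobase. The neurotrophin receptor genes Ntrk2 and Ntrk3 had 5.07 and 0.406 CPM per kilobase. Of the coreceptors for GDNF family ligands, Gfra3 stood at 36.2 ± 3.28, Gfra2 at 18.9 ± 1.26 and Gfra1 at 3.00 ± 0.997 CPM per kilobase.

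The axonal cytoskeleton list had the highest median level of the 35 lists plotted. All 34 genes of the list reached 1 CPM, 31 ranked in the top 10% per kilobase, and together they took 4.60% of the scaled counts. Beyond the tubulins, Gap43 and stathmins above, the neurofilament genes Nefl, Nefm and Nefh had 220 ± 12.3, 106 ± 2.78 and 28.6 ± 4.44 CPM per kilobase, against 1380 ± 130 for Prph. Exons of Nefl and Nefm overlap in the annotation, so their reads may have been shared. None of the 34 had a 2-fold range, and 1 did with length and GC content centred. The widest were Elavl3, an RNA-binding protein of neurons, with 416, 217, 261 and 274 CPM, and Basp1, a growth cone protein, with 820, 482, 468 and 585 CPM, both highest in control 1. Tuba1a and Tuba1b share much sequence: 24.5% and 16.9% of their words of 50 bases occurred in no other gene, so the split of reads between them is uncertain.

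Motor genes were led by kinesin-1 subunits. Klc1, a kinesin light chain, had 316 ± 20.4 CPM per kilobase, ahead of the heavy chain genes Kif5a (183 ± 21.3) and Kif5c (144 ± 23.3). Kif1b (chr4:149176319-149307693, minus strand), the gene that carries the floxed allele and a kinesin of synaptic vesicle and mitochondrial transport, had 1415, 1283, 938 and 1168 CPM. That is 68.2 ± 11.5 CPM per kilobase, rank 563, against 116 ± 20.7 for its relative Kif1a. Counts and exon length both join the isoforms of the gene. Kif1a had 1352, 1045, 892 and 1046 CPM, below Kif1b in each library, so the order of these genes depends on the exon length used. Both were highest in control 1 and lowest in control 3. Dynll1, a dynein light chain, had 127, 197, 308 and 233 CPM and was the 1 of 26 members with a 2-fold range. With length and GC content centred its range was 1.98-fold. Its order of libraries was the reverse of that of Kif1b, whose centred range was 1.11-fold, with 1.12-fold for Kif1a. The part of transcript length in these opposite orders was not tested.

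Synaptic vesicle genes had an even sum. The 36 members summed to 12345, 12418, 12565 and 12479 CPM, within 1.02-fold, and 0 of 34 had a 2-fold range. Sncg led, followed by Syt4, a synaptotagmin, at 446 ± 20.3 CPM per kilobase, Cplx1, a complexin that clamps fusion, at 197 ± 17.1, Syt11 at 189 ± 24.1 and Rab3b at 147 ± 22.7. The vesicle marker Syp had 96.7 ± 11.5, Syn1 84.3 ± 8.41 and the target SNARE gene Snap25 107 ± 12.2 CPM per kilobase.

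Voltage-gated ion channels were lower and more variable. Of 39 genes, 37 reached 1 CPM, with a median of 2.85 CPM per kilobase. Scn3b, an accessory sodium channel subunit, stood out at 203 ± 31.5. The pore-forming sodium channel genes of peripheral and developing neurons, Scn9a and Scn3a, had 23.2 ± 3.55 and 20.1 ± 2.50, and the N-type calcium channel gene Cacna1b had 17.5 ± 3.62. Of 32 members at 5 CPM or more, 6, or 18.8%, had a 2-fold range, against 4.55% of all genes. With length and GC content centred, as described below, 2 had it, and without control 1, 3. The potassium channel gene Kcna2 had 142, 62.7, 63.2 and 62.8 CPM, Hcn4, a pacemaker channel, 27.3, 12.7, 12.9 and 16.8 CPM, and the T-type calcium channel gene Cacna1h 20.6, 7.50, 8.23 and 12.4 CPM. In each, control 1 was highest. The median transcript length of the list was 8068 bases, and 21 of the 32 were highest in control 1, or 65.6% against 33.9% of all genes, and 20 lowest in control 3, or 62.5% against 27.5%.

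Glial genes had a median of 9.74 CPM per kilobase, against 131 for noradrenergic genes. Of 27 genes of satellite glia and the Schwann lineage, 26 reached 1 CPM and 7 ranked in the top 10% per kilobase. The highest was Apoe, a lipid carrier of glia and macrophages, with 1540, 1086, 1566 and 1243 CPM, or 635 ± 109 CPM per kilobase. Fabp7, a fatty acid-binding protein of immature glia, had 193, 390, 523 and 352 CPM, with control 1 lowest and control 3 highest, and 291 ± 109 CPM per kilobase. Sox10, which defines the lineage, had 75.6, 54.8, 76.9 and 47.6 CPM, or 20.9 ± 4.83 CPM per kilobase, and Sox2 had 5.65 ± 0.527. Foxd3, a crest and glial factor, had 21.2, 5.48, 4.89 and 7.09 CPM. Control 1 lay 2.98-fold above the next library. With Fabp7 it made up the 2 of 24 with a 2-fold range. Without control 1 there was none, and with length and GC content centred there was 1, as the range of Fabp7 was then 1.58-fold. Gfap was at 0.995 CPM.

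Myelin genes were uneven. Pmp22, a peripheral myelin protein also made by other cells, had 189 ± 25.5 CPM per kilobase. Mal had 33.3 ± 4.95 and Mbp 10.5 ± 1.31 CPM per kilobase. Pou3f1 and Pmp2 were under 0.1 CPM. Of the 8 members at 5 CPM or more 0 had a 2-fold range, and 1 with length and GC content centred.

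Vessel genes were low. Of 24 endothelial genes, 23 reached 1 CPM and 0 ranked in the top 10% per kilobase. Cdh5, the endothelial cadherin, had 63.4, 39.2, 50.2 and 53.7 CPM, or 12.3 ± 2.37 CPM per kilobase, and Pecam1 had 45.9, 40.1, 41.4 and 40.9 CPM, or 6.76 ± 0.421. Of 19 members at 5 CPM or more, 16 were lowest in control 2, or 84.2% against 21.9% of all genes, and 0 had a 2-fold range. The summed level was 394 CPM in control 1 and 286 in control 2. Among mural cell genes, Mcam, an adhesion molecule also made by other cells, had 210 ± 14.3 CPM per kilobase, far above Myl9 (37.5), Rgs5 (14.95), Acta2 (7.36) and Pdgfrb (6.68). Myh11, the smooth muscle myosin, had 4.47, 10.4, 7.71 and 6.50 CPM and was the 1 of 13 with a 2-fold range.

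Connective tissue genes were abundant. Col3a1, a fibrillar collagen, had 2228, 2484, 3093 and 2808 CPM and ranked 13 among all rows by CPM. Per kilobase it had 270 ± 38.4, and Col1a1 and Col1a2 had 164 ± 32.6 and 127 ± 12.1. Col1a1 had 992, 824, 1321 and 1157 CPM. The collagen list summed to 7334, 6850, 8620 and 7995 CPM, lowest in control 2 and highest in control 3, a ratio of 1.26. With length and GC content centred the ratio was 1.51, and Col3a1 and Col1a1 were lowest in control 1, at 2036 and 753 against 2469 and 913 in control 2. Among fibroblast and matrix genes, Lgals1, a galectin, had 503 ± 81.2, Vim, the intermediate filament of mesenchyme and glia, 426 ± 46.6, Sparc 403 ± 40.01, Postn 90.4 ± 10.3 and Dcn, decorin, 54.0 ± 9.37 CPM per kilobase. Pdgfra, a receptor that marks fibroblasts, had 3.18 ± 0.655. In this list 14 of 23 members, or 60.9%, were highest in control 3, against 35.8% of all genes, and 14 were lowest in control 2, against 21.9%. Col2a1, the collagen of cartilage, and Dpt, dermatopontin, were the members with a 2-fold range, 1 of 16 and 1 of 23.

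Blood genes set the libraries apart. The row named Beta-s, which the annotation gives as the adult beta globin gene Hbb-bs, had 408, 34.6, 101 and 70.4 CPM in controls 1 to 4, so that control 1 held 11.8 times the level of control 2. Alas2, the heme-synthesis enzyme of red cell precursors, followed the same order at its ends, with 34.7, 3.41, 7.54 and 7.81 CPM. Slc4a1, the red cell anion exchanger, had 4.53, 0.366, 0.345 and 0.894 CPM. Bpgm, a red cell enzyme also made in other tissues, did not follow, at 60.3, 58.3, 65.5 and 61.2 CPM. The list summed to 519, 101, 180 and 146 CPM, and without control 1 the ratio of highest to lowest was 1.74. Embryonic globins Hbb-bh1, Hbb-y and Hba-x were under 0.1 CPM. The alpha globin genes Hba-a1 and Hba-a2, each on more than 1 row, had 0 counts in each control library. How reads with several matches were counted is not known, so these values cannot be read as absent RNA.

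Macrophage genes were low. C1qb and C1qa, complement components made by macrophages, had 31.3 ± 9.07 and 29.1 ± 8.48 CPM per kilobase, Ctss, a lysosomal protease, 30.5 ± 4.53, and Csf1r, the receptor that macrophages depend on, 6.36 ± 0.947. Ptprc, the pan-leukocyte gene, had 5.49, 5.67, 5.70 and 5.07 CPM. The T cell gene Cd3e and the neutrophil genes Mpo and Elane were under 0.1 CPM. Of 19 members at 5 CPM or more, 17 were lowest in control 2, or 89.5% against 21.9% of all genes, and the list summed to 462 CPM in control 1 against 275 in control 2. Mast cell proteases were high in control 1: Cpa3 had 18.6, 1.71, 4.43 and 2.56 CPM, and 4 such genes (Cpa3, Cma1, Tpsb2 and Mcpt4) held 1060, 133, 401 and 215 counts. Cpa3, Cma1 and Mcpt4 were the 3 of 19 with a 2-fold range. Without control 1 it was 0 of 16, and with length and GC content centred 5 of 19.

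Genes of neighbouring tissues were searched, since the ganglion lies beside the carotid artery, airway and glands. Of 13 chromaffin and glomus cell genes, 13 reached 1 CPM, but most of the leading ones (Th, Cyb561, Chga) are neuronal genes as well. Olfr78, an olfactory receptor of glomus cells, had 163, 170, 176 and 173 CPM, within 1.08-fold, and Pnmt, which makes adrenaline, had 5.97, 5.73, 7.42 and 8.41 CPM. In the muscle list Acta1, skeletal actin, had 34.5, 2.74, 9.26 and 6.68 CPM, and the sum was 123 CPM in control 1 and 61.1 to 86.3 in the others. Of 5 muscle members at 5 CPM or more, 2 were highest in control 1 and 2 were lowest there. Each share is 40%, against 33.9% and 38.7% of all genes. Myod1 had 0 counts in each library. Cartilage genes summed to 156 CPM in control 1 and 103 to 108 in the others. Of 7 cartilage members at 5 CPM or more, 5 had a 2-fold range with all 4 libraries and 0 without control 1.

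Sensory neuron genes were the lowest of the lists, at a median of 0.804 CPM per kilobase. Scn10a, a sodium channel of nociceptors, had 3.10, 4.75, 3.05 and 14.7 CPM. Slc17a6, the vesicular glutamate transporter of sensory neurons, had 0.119, 0.609, 0.633 and 16.4 CPM, and Scn11a, another nociceptor channel, had 0.716, 1.34, 0.863 and 5.19 CPM. In each, control 4 was highest. P2rx3, an ATP receptor, had 31.9, 19.1, 12.8 and 35.8 CPM and the actin regulator Avil 7.28, 13.5, 11.3 and 19.1. Exons of P2rx3 overlap those of Ssrp1, and exons of Avil those of Tsfm, so their reads may have been shared. Pou4f1, which defines sensory neurons, stayed at 0.0597, 0, 0.173 and 0.417 CPM, and Trpm8, Pvalb and Mrgprd were under 0.1 CPM. Whether ganglion or other neurons held these transcripts was not tested.

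Airway and thyroid transcripts were found in control 1. Muc5b (chr7:141839070-141873084, plus strand), a mucin of airway glands, had 43.4, 0, 0.288 and 1.91 CPM. Scgb3a1 and Scgb3a2, secretoglobins of airway cells, had 31.98 and 27.0 CPM in control 1 and at most 0.417 in the others, and Reg3g, a secreted lectin of epithelia, had 36.3, 0.122, 0.345 and 0.596 CPM. Together these 4 genes held 2325, 2, 21 and 54 counts. Tg, thyroglobulin, had 23.1, 0.122, 0.230 and 0.596 CPM. Both sets were highest in control 1, and the part that tissue carried along with this ganglion pair had in them was not tested. General epithelial genes were near the limit of detection, with Krt5 and Krt8 under 0.1 CPM. Fat genes varied between libraries too: Fabp4, a lipid carrier, had 34.3, 11.2, 28.1 and 12.7 CPM and Adipoq, adiponectin, 3.70, 0.488, 5.52 and 1.13 CPM, with controls 1 and 3 above controls 2 and 4.

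Proliferation, activity and interferon genes had medians below that of all ranked genes, and stress genes a median above it. Cell division genes, which dividing glia and other cells use at this age, summed to 1446, 1434, 1463 and 1439 CPM. Their median was 4.40 CPM per kilobase. Mki67 had 50.3, 81.5, 65.0 and 72.6 CPM and Top2a 45.9, 89.0, 67.3 and 70.6 CPM, lowest in control 1. Of 39 members at 5 CPM or more 29 were lowest in control 1, 74.4%, against 38.7% of all genes. Ccnd1, cyclin D1, the most abundant member, had 544, 320, 304 and 350 CPM and was highest in control 1. Immediate early genes, induced by activity or handling, had a median of 3.76 CPM per kilobase, and Fos had 16.4, 15.8, 10.3 and 13.7 CPM. Jund had 103, 25.2, 46.8 and 50.4 CPM and was among the 4 of 18 members with a 2-fold range, against 0 of 19 without control 1. Stress and heat shock genes had a median of 12.7 CPM per kilobase, against 6.40 for all ranked genes. In this list 6 members ranked in the top 10%, led by Hsp90ab1 at 1187 CPM per kilobase. The heat shock genes Hspa1a and Hspa1b were at 1.85 and 2.55 CPM, while the constitutive chaperones Hspa5 and Hspa8 had 141 ± 30.6 and 70.8 ± 13.4 CPM per kilobase. Of 20 stress members at 5 CPM or more, 9 were highest in control 1, 45% against 33.9% of all genes. Another 10 were lowest there, 50% against 38.7%. Pdk4, Hif3a and Per1 were the 3 of 20 with a 2-fold range. Pdk4 had 21.8, 2.86, 3.05 and 7.21 CPM, Hif3a 33.2, 9.99, 8.46 and 10.4 CPM and Per1 52.4, 18.8, 26.1 and 25.04 CPM, each highest in control 1. Without control 1 it was 0 of 19 stress members, and centred 5 of 20. Interferon-stimulated genes had a median of 1.72 CPM per kilobase, and 0 of 11 had a 2-fold range, or 1 when centred.

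Genes of the imprinted list contributed strongly. Counts per gene join all its transcripts and both alleles, so the sum does not measure imprinted expression. The list summed to 20178, 15925, 16910 and 17440 CPM, most of it from Gnas and Meg3, and took 1.76% of the scaled counts. Meg3 had 5734, 3751, 3108 and 3873 CPM. Nnat, neuronatin, had 1551, 1054, 1419 and 1391 CPM, Ndn, necdin, 219 ± 23.3 CPM per kilobase, and H19 and Igf2, the maternal and paternal transcripts of 1 domain, 187 ± 55.4 and 60.4 ± 11.9. H19 had 635, 331, 499 and 376 CPM. Exons of Igf2 overlap an antisense gene. Dlk1, a membrane ligand, had 287, 111, 185 and 158 CPM, and with Magel2 and Cdkn1c formed the 3 of 26 with a 2-fold range. Each was highest in control 1. Without control 1 it was 0 of 26, and with length and GC content centred 1, with Magel2 at 1.73-fold and Cdkn1c at 1.75-fold. Xist, which coats the inactive X chromosome, had 1827, 1378, 982 and 1047 CPM. The 4 Y-linked genes together held 0, 0, 0 and 1 counts.

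Some genes that cells use everywhere had few counts, which bears on every rank above. Gapdh had 1.25, 1.28, 1.78 and 1.43 CPM and Ppia 1.31, 1.40, 1.21 and 1.37 CPM, far under Eef1a1 at 1877 and Actb at 1872 CPM. Actg1, the other cytoplasmic actin, had 48.0 CPM. Of 74 ribosomal protein genes, 6 were under 1 CPM and 29 under 10, and levels ran from 0.0714 CPM per kilobase (Rpl26) to 416 (Rpl8). The median rose with the share of words of 50 bases found in no other gene: 5.31 CPM per kilobase for 32 genes under 60%, 14.3 for 31 genes from 60% to under 90%, and 27.6 for 11 genes at 90% or more. Many of these genes have processed pseudogenes, and how reads with several matches were counted is not stated in the labels or notes used here. The part of such copies in these levels was not tested, and no level was corrected for it.

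The libraries also differed by transcript length and base composition. Control 3 was above the mean of the libraries for short transcripts and below it for long ones, with a median log2 deviation of 0.35 for 358 genes under 1000 bases and -0.24 for 781 genes of 8000 bases or more. Control 1 ran the other way, from -0.30 to 0.15. By GC content control 1 and control 2 were opposed: for 478 genes at 60% GC or more their medians were 0.29 and -0.29, and for 673 genes under 40% they were -0.12 and 0.09. In that high-GC class 110 genes, or 23.0%, had a 2-fold range, against 4.55% of all genes. Centring log2 values within bins of length and GC content left 281 of 11564 genes with a 2-fold range, or 2.43%, 217 of them among the 529. What made the libraries differ in this way was not tested.

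**Figure D3:**
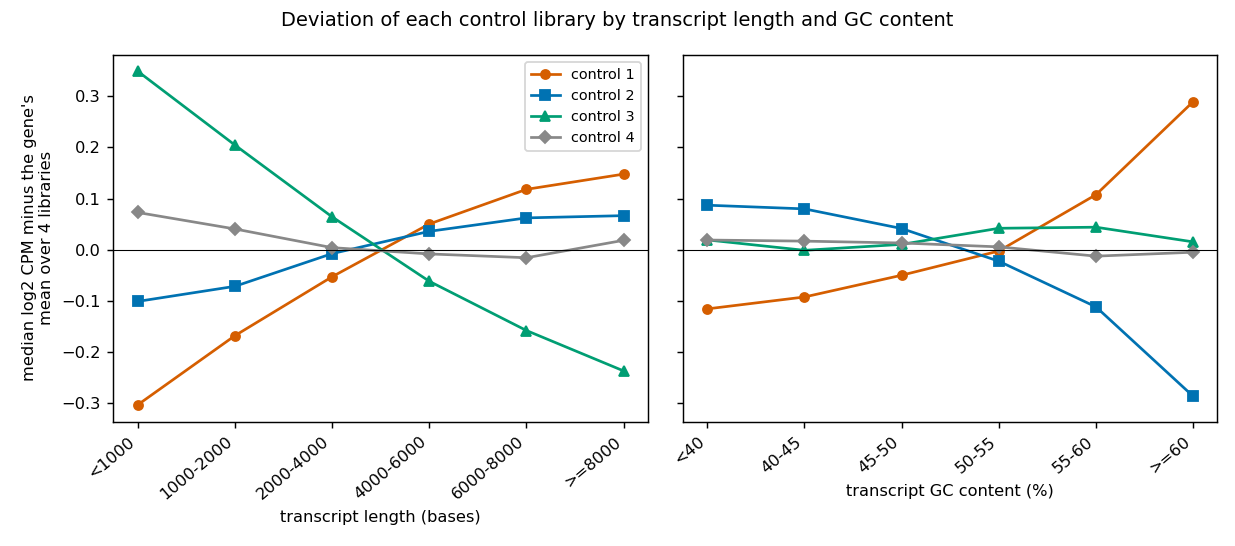
Median over genes at 5 CPM or more of log2 CPM minus the gene's mean over the 4 control libraries, by transcript length in bases (left) and transcript GC content in percent (right), for each library. Controls 1 and 3 cross in opposite directions with length, and controls 1 and 2 separate to 0.29 and -0.29 at 60% GC or more, while control 4 stays near 0.

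Of 36 lists, 8 had a summed level at least 1.5 times higher in 1 library than in another, and these were marker lists of blood, leukocytes, muscle, cartilage, fat and epithelium, the cholesterol list and the Xist list. Without control 1 it was 2, red blood cell genes at 1.74 and adipocyte genes at 1.94. With length and GC content centred, 8 lists again passed, with collagens (1.51) among them and cartilage genes (1.39) not. The ratio was 5.14 for red blood cell genes, 2.38 for thyroid and epithelial genes, 2.20 for adipocyte genes and 2.01 for skeletal muscle. It was 1.05 for noradrenergic genes, 1.12 for the axonal cytoskeleton and 1.02 for synaptic vesicle genes. In the thyroid and epithelial list 1 of 4 members at 5 CPM or more, Tg, had a 2-fold range. Tg held 23.1 of the list's 48.7 CPM in control 1.

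**Figure D4:**
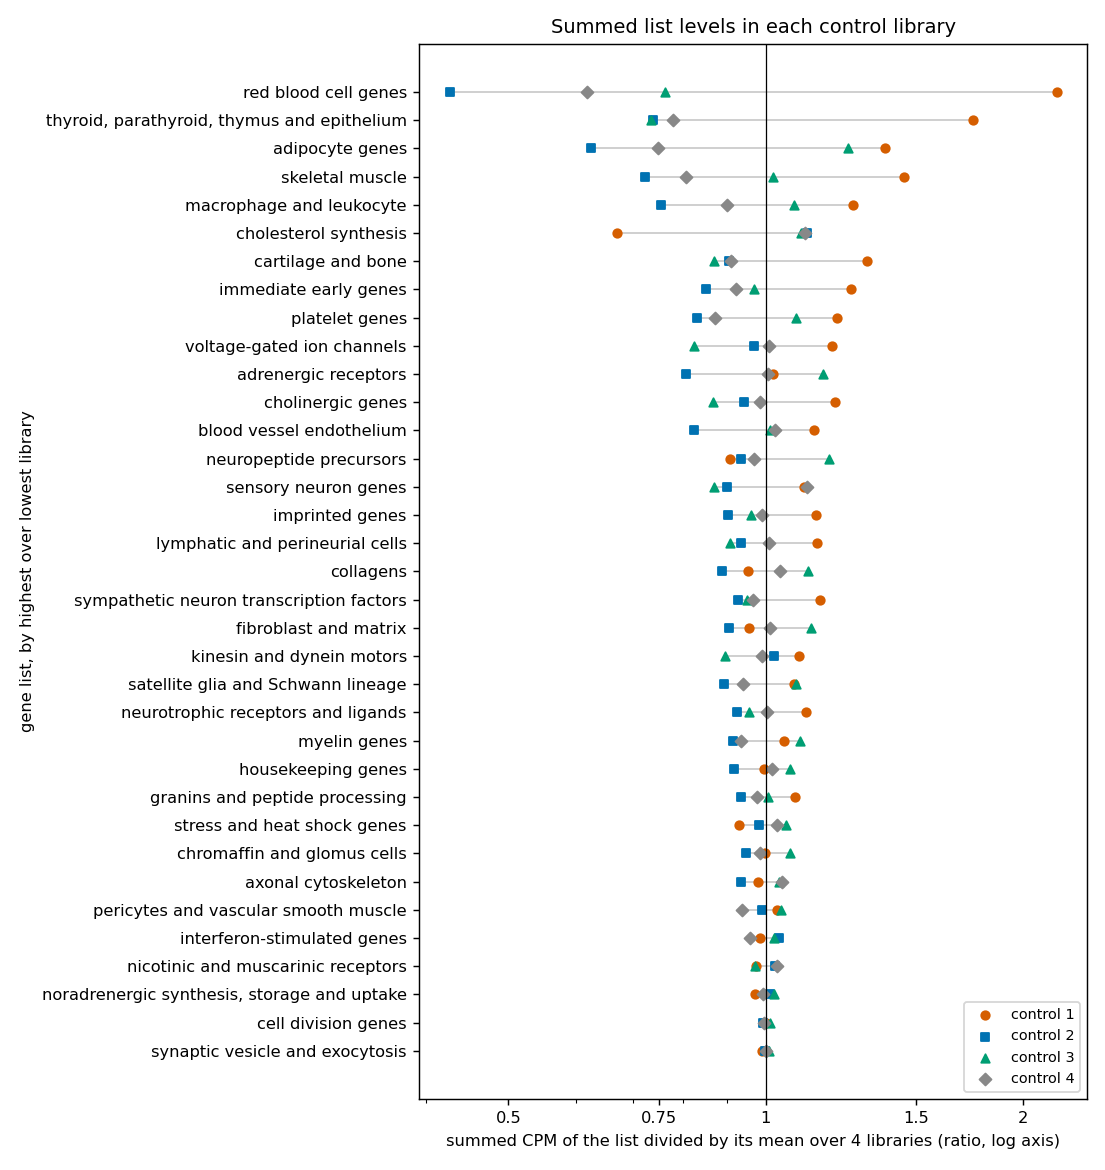
Summed CPM of each of 35 lists in each control library divided by the list's mean over the 4 libraries (log axis), ordered by the ratio of highest to lowest library. Control 1 is the outermost point for red blood cell (519 CPM), thyroid and epithelial (48.7 CPM) and cholesterol genes (2748 CPM). Of the 48.7 CPM, Tg alone held 23.1. Synaptic vesicle genes coincide.

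Single libraries stood apart in few genes. In 61 genes, or 0.524% of those at 5 CPM or more, 1 library lay at least 2-fold above or below its nearest neighbour. Control 1 was the high library in 31 genes and the low one in 16, control 2 the low one in 18 and the high one in 0. Controls 3 and 4 were each high in 1 gene and low in 1. The high genes of control 1 were led by the airway, thyroid, red cell and mast cell genes above. Some neuronal genes were also among the most variable: Lmtk3, a brain kinase whose transcript has 66.7% GC, had 147, 10.4, 37.0 and 57.1 CPM, the synaptic scaffold gene Shank1 56.1, 12.2, 25.3 and 32.1, and the neural repressor Scrt1 9.96, 2.01, 5.24 and 6.38. All 3 were highest in control 1 and lowest in control 2. With length and GC content centred they kept that order of extremes, with ranges of 10.1-fold for Lmtk3, 3.00-fold for Shank1 and 3.47-fold for Scrt1. Only 478 genes had 60% GC or more, so the highest of the 10 equal-sized GC bins also held genes of lower GC. The centring therefore cannot show how much of the range of a gene such as Lmtk3 goes with its GC content.

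**Figure D5:**
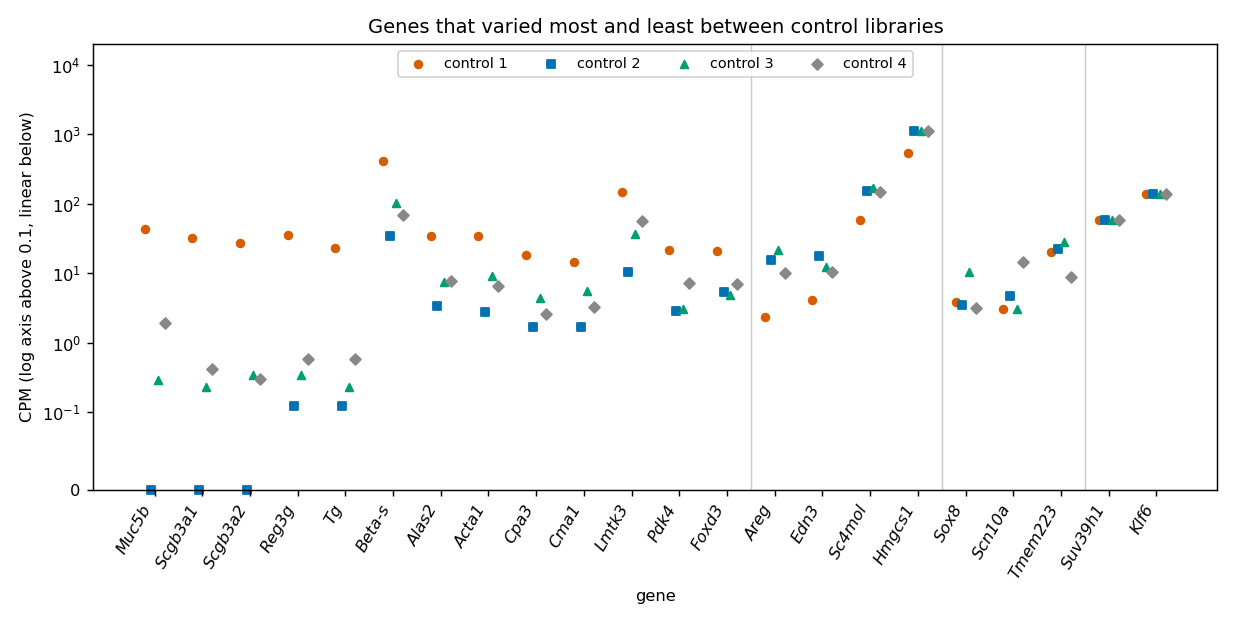
CPM (log axis above 0.1, linear below) in each control library of genes that were high in control 1, low in control 1, apart in controls 3 or 4, and most even (left to right, divided by lines). Muc5b runs from 0 in control 2 to 43.4 in control 1, Hmgcs1 is lowest in control 1 at 548, and the 4 points of Suv39h1 coincide near 58.5.

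Control 1 was low for sterol synthesis. Hmgcs1, an early enzyme of the pathway, had 548, 1114, 1102 and 1118 CPM. Sc4mol, a sterol oxidase now named Msmo1, had 58.8, 152, 170 and 149 CPM, and Idi1 3.52, 8.11, 7.08 and 8.88 CPM. The list summed to 2748 CPM in control 1 and 4584, 4505 and 4561 in the others, whose highest and lowest were within 1.04-fold. Of 23 members, 22 were lowest in control 1, or 95.7%, against 38.7% of all genes. Srebf2, the transcription factor that drives the pathway, had 322, 288, 269 and 320 CPM and was lowest in control 3, but with length and GC content centred it was lowest in control 1, at 257 against 294 to 329. Of the 23 members 10 had a 2-fold range, and 0 had it without control 1. Centred for length and GC content, 6 had it.

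Other genes low in control 1 were Areg, amphiregulin, with 2.39, 15.8, 22.04 and 10.1 CPM, the endothelin gene Edn3 with 4.18, 17.6, 12.3 and 10.3 CPM, and Igfbp2 with 2.39, 5.18, 7.31 and 6.26 CPM. Control 3 was high for Sox8, a glial factor related to Sox10, with 3.82, 3.53, 10.6 and 3.16 CPM. Control 4 was low for Tmem223, a mitochondrial membrane protein gene, with 20.1, 22.1, 28.5 and 8.94 CPM. At the other end, the 10 genes of smallest spread at 5 CPM or more lay within 1.02-fold. Suv39h1, a histone methyltransferase, had 58.0, 58.7, 58.6 and 58.5 CPM, and Klf6, a zinc finger factor, had 139, 141, 140 and 141 CPM. They were picked for small spread out of 11633 genes, so their evenness cannot be read as a trait of the genes. Their ranges were 1.08-fold and 1.10-fold with length and GC content centred.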

How the data were processed

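RNA-seq of superior cervical ganglia was taken from 1 deposited table of whole-number counts per gene, made by the authors, and the 4 control columns were used. The submitters' processing notes name the aligner STAR and the mouse build mm10. The STAR version, the counting program, the annotation, the use of strand and the treatment of reads with several matches were found in none of the labels or notes. Samples were grouped by the genotype in the labels, and separate animals are the replicates.

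From the deposited counts, CPM was computed with TMM scaling (edgeR 4.0.16, R 4.3.3) over the control columns. It was divided by the union of exon lengths in kilobases (GENCODE vM21, GRCm38) to compare genes. Of 23351 symbols 98.1% matched. Genes of 1 row with a length and a mean of 1 CPM or more were ranked, and spread was read at 5 CPM or more. Tables and plots used python 3.11.15, pandas 2.3.3, numpy 2.4.6 and matplotlib 3.10.9. No test between groups was made, as there is 1 group, and single libraries were checked with Dixon's test. The scripts were checked on simulated data. Promoters are from RefSeq (GRCm38.p6), and 17161 of 23063 genes of 1 row matched.

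The members and gene lists were chosen with earlier results of these data known. Genes are named by a rule: a few markers, the 20 highest on each scale, up to 5 of highest level and 4 of largest spread in each list, the first 4 of a list, members under 0.1 CPM, the 25 genes of largest and 10 of smallest spread, and genes with 1 library apart. Pcsk1, Maob, Gch1, Qdpr, Tac1, Calca, Gfap, Ppia, Rpl26, Rpl8 and Srebf2 were chosen after their values were seen. A few genes chosen this way are left unreported. Alternatives were library size alone, DESeq2 1.42.0 size factors, other minimum levels, other lengths, each library left out and, chosen after seeing the data, length- and GC-centred values.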

Additional observations from a re-analysis of the deposited data

Results flagged for a closer look

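In a group of 4 samples, a library was picked out when its gap to the nearest other library as a share of the whole range exceeded Dixon's 95% critical value. Chance picks about 1 in 20 groups. The rule was applied to values not centred for length and GC content. Of 36 list sums 4 were picked, all through control 1, and of 218 named genes 29 were. Many of the named genes were chosen for their spread or for 1 library apart, so their number cannot be read against chance. Control 1 was the high library in 19 of these 33 and the low one in 4.

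Control 1 was high in summed level for sympathetic neuron transcription factors (3624 CPM), cartilage and bone genes (156 CPM) and thyroid and epithelial genes (48.7 CPM). Of the thyroid and epithelial sum, Tg held 23.1 CPM. Control 1 was low in summed level for cholesterol synthesis (2748 CPM). Among tissue markers control 1 was high for Muc5b (43.4 CPM), Reg3g (36.3), Scgb3a1 (31.98), Scgb3a2 (27.0), Tg (23.1), Alas2 (34.7), Slc4a1 (4.53), Cpa3 (18.6) and Col2a1 (14.2). It was also high for Kcna2 (142 CPM), Mbp (105), Hif3a (33.2), Magel2 (26.8) and Foxd3 (21.2). Mbp stayed highest in control 1 when centred, at 101 against 81.9 to 88.4 in the others. Control 1 was low for Maoa (925 CPM), Hmgcs1 (548) and Mal (72.004).

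Control 2 was low for Gnas (6475 CPM). Centred for length and GC content, Gnas had 6813 in control 2, near the 6843 of control 1, and 7580 and 7469 in controls 3 and 4. Control 3 was high for Pmp22 (535 CPM) and Sox8 (10.6). With length and GC content centred, Pmp22 was highest in control 1, at 483 against 468 in control 3, and Sox8 stayed highest in control 3. Control 4 was high for the sensory neuron genes Slc17a6 (16.4 CPM), Scn10a (14.7) and Scn11a (5.19). The remaining values rest on a few counts: Krt8 at 0.298 and Adra1a at 0.179 CPM in control 1, Calcb at 0 in control 2, Pmp2 at 0.0575 and Mrgprd at 0.115 in control 3 and Mpo at 0.119 in control 4.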

How the results depend on the processing

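Mean CPM of the 218 named genes and the 36 list sums moved by less than 1 SD between libraries under library size alone and DESeq2 size factors. With a library left out, genes at 1 CPM or more numbered 13841 to 13914 and the share of the 100 most abundant 16.4% to 16.6%. Spread depended on single libraries. Genes with a 2-fold range numbered 82 to 506, with 82 without control 1 and 316 without control 3, against 529. Genes with 1 library apart numbered 23 to 152, with 23 without control 1 and 152 without control 4, against 61. Lists with a summed level differing by 1.5 times or more numbered 2 to 8, with 2 without control 1, against 8. The 2-fold count was 1091 from a mean of 1 CPM, 200 from 20 CPM and 281 with length- and GC-centred values, and 13 genes had 1 library apart from 20 CPM. Of 36 median list ranks, 22 moved by over 1 SD without the length correction, 13 with the longest transcript and 29 with no minimum level. Low genes rest on few counts, and ranks of genes with near copies on an unknown counting rule. Exons of other named genes, among them Phox2a, Chrnb2, Syn1, Klc1, Alas2, Csf1r, Ccnd1 and Sox8, overlap another gene. How reads in such overlaps were counted is not known. No paired analysis was possible because a single group was described.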
